A study of Rattus norvegicus with 4 samples.

Results

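The BCL2 family decides at the outer mitochondrial membrane whether a cell enters apoptosis. Guardians such as Bcl2 and Bcl2l1 (Bcl-xL) hold the pore-forming effectors Bax and Bak1 in check. BH3-only proteins, which sense damage, bind the guardians or the effectors and tip that balance. When the effectors form pores, cytochrome c leaves the mitochondria and caspases are activated. In the liver, loss of activated stellate cells by apoptosis is a known route by which fibrosis resolves.

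The family was taken by symbol from the deposited count table, as 10 named genes of which 9 had a row: 2 guardians (Bcl2, Bcl2l1), 3 effectors (Bax, Bak1, Bok) and 4 BH3-only members (Bad, Bid, Bmf, Bcl2l11). Mcl1, the third guardian named, was not analysed here. All 9 were abundant enough to be tested, among 12316 tested genes of 32883 listed. HSC-T6 is a rat hepatic stellate cell line, immortalised with a viral large T antigen. Untreated cells (treatment given as none) gave 2 libraries and cells treated with ginsenoside Rk1 (GRK1 in the labels), a ginseng saponin, gave 2, so n = 2 per group holds for every value here. Dose, time and vehicle are not in the labels. Nor do the labels state that paired libraries are separate cultures, and p-values therefore reflect the spread between libraries, possibly a technical one.

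Library totals ranged from 18008586 to 20430930 counts, and 3 counts corresponded to 0.148 to 0.167 CPM (counts scaled to library size, on TMM-scaled totals). The 9 stellate cell markers with a row summed to 17690 to 18740 CPM untreated and to 11840 to 11930 CPM with Rk1. Col1a1 and Col3a1, with untreated means of 12050 and 4845 CPM, made up most of that sum. Col1a1 (0.665-fold), Col3a1 (0.542-fold), Acta2 (0.184-fold) and Gfap (0.271-fold) fell. Acta2 and Gfap were low, at means of 3.34 and 3.48 CPM untreated and 0.610 and 0.942 CPM with Rk1. Vim (0.945-fold), Des (1.29-fold) and Pdgfrb (0.806-fold) did not pass, and Lrat and Rgs5 were at 0 counts in each library. Markers of hepatocytes summed to 0.167 to 0.330 CPM and of macrophages or leukocytes to 1.13 to 1.95 CPM. Those of endothelial cells summed to 0.668 to 0.988 CPM. Alb, Ptprc and Kdr had at most 2 counts in a library, while Apoa1 had 3 to 4, Cd68 21 to 30 and Tek 10 to 16. The cholangiocyte list went from 7.29 and 9.07 CPM untreated to 2.58 and 2.78 CPM with Rk1 through Sox9, while Krt19, Krt7 and Epcam had at most 4 counts in a library. The part of these markers in the results below was not tested. In bulk RNA a change in the number of cells of a type and a change in the RNA per cell cannot be told apart.

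Promoter letters are shown here for 3 of the 4 BH3-only members, without Bid, because Bmf had the largest fold change of the 9 genes and because Bad and Bcl2l11 share a motif. They come from RefSeq on GRCr8, the 250 bases before an annotated start. Of the 10 named members 8 matched, with 11 windows. Bax and Bok had no window and were not searched. The Bmf stretch is chr3:125974065-125974314 on the minus strand, of which the last 23 bases lie inside the annotated gene. The Bcl2l11 stretch is chr3:135819792-135820041 on the plus strand. From the Bad window, 27 bases at chr1:213562986-213563012 on the plus strand are given, which lie inside the annotated gene, whose outermost start is further upstream. Capitals mark the FOXO core GTAAACA or its reverse complement TGTTTAC, and the GC box GGGCGG.
Bmf: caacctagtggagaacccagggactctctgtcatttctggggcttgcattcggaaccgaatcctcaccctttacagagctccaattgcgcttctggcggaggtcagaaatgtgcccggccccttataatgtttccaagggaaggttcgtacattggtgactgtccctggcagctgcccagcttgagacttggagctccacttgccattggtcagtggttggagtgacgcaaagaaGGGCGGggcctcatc
Bcl2l11: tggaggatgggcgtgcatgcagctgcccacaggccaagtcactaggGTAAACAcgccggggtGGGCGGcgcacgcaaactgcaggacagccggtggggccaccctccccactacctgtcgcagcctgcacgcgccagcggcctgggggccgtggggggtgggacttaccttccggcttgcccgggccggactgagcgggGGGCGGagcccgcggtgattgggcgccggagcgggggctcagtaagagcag
Bad: atcactaagcTGTTTACagagttttca

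Both strands of each window were searched for 4 sets of letters. The FOXO core was present in the windows of Bad and Bcl2l11, starting 118 and 204 bases before the start, and in 3.21% of 33469 RefSeq windows of the same length. The GC box, a common promoter element, was present for Bmf, Bcl2l11, Bid, Bak1 and Mcl1, and in 30.5% of all windows. ACGTG, the core of the hypoxia response element, was found for Bcl2 and for 1 of the windows of Bcl2l1, and in 16.6% of all windows. The E-box CACGTG, which contains ACGTG, was in none of the 11 windows of these 8 members and in 5.59% of all windows. These matches describe letters only.

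The comparison asked how transcripts of guardians, effectors and BH3-only members differ between Rk1-treated and untreated cells. Of the 9 genes, 4 rose with Rk1 and 0 fell in edgeR's quasi-likelihood test at a Benjamini-Hochberg adjusted p under 0.05. They were the effectors Bax and Bok and the BH3-only members Bad and Bmf, with rises of 1.17-fold to 1.38-fold. Neither guardian passed the test. Across all tested genes 22.0% were called, 11.5% higher and 10.5% lower. The median log2 fold change was 0.20 over the 9 genes, against 0.00 over all tested genes. At an unadjusted p under 0.05, 6 of the 9 were higher and 0 lower, against 18.6% and 17.4% of all tested genes. The count of 4 depended on the setting: DESeq2 called 1 higher and 0 lower, limma-voom called 3 and 0, and 1 was called without untreated replicate 2 or without Rk1 replicate 1.

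**Figure D1:**
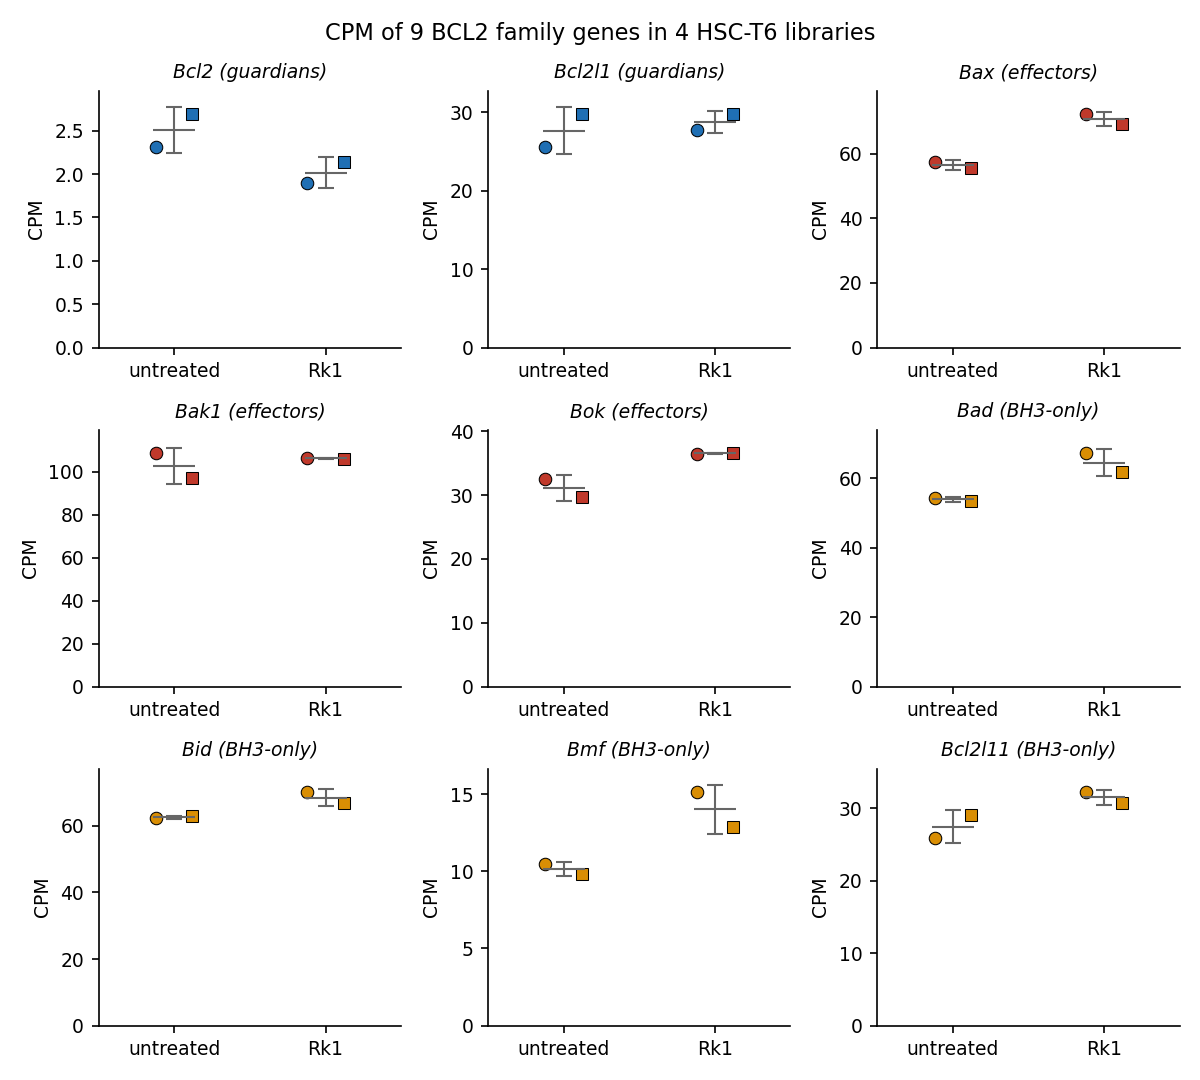
CPM (vertical axis, from 0) of each of the 9 BCL2 family genes in untreated and Rk1 libraries, with circles for replicate 1, squares for replicate 2, and a bar and whiskers for the mean and SD of 2 libraries. The Rk1 points lie above both untreated points for Bax, Bok, Bad, Bid, Bmf and Bcl2l11, and below them for Bcl2. Of all tested genes, 32.1% had Rk1 higher and 30.9% had Rk1 lower without overlap.

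Among the guardians, Bcl2, which binds and restrains BH3-only proteins and effectors, had 47 and 49 counts untreated and 34 and 39 counts with Rk1. These are 2.32 and 2.69 CPM untreated and 1.89 and 2.14 CPM with Rk1. Both Rk1 libraries were below both untreated ones, but the counts are low and the gene did not pass (log2 fold change -0.31 ± 0.22 SE, edgeR adjusted p = 0.363). Its 95% interval reached from 0.563-fold to 1.16-fold, and no difference could be detected at these counts. The gene (ENSRNOG00000002791, chromosome 13, 26605426 to 26769374, minus strand in Rnor_6.0) was counted over 1179 bases of exon.

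Bcl2l1 encodes Bcl-xL, a guardian, and a shorter splice form that favours death, which a gene-level count does not separate. It stood at 25.6 and 29.7 CPM untreated and at 27.8 and 29.8 CPM with Rk1. The groups overlapped, and the difference was within the spread of the untreated pair (0.06 ± 0.09, adjusted p = 0.682, 95% interval 0.902-fold to 1.20-fold). Without untreated replicate 1 the value was -0.05. Bcl2l1 (ENSRNOG00000007946) lies on chromosome 3 at 148259596 to 148313810, minus strand. An annotated pseudogene of 933 bases, LOC108353446, with 14880 counts over the 4 libraries, lies within that span on the opposite strand, and the strand setting of the counting is not given in the sources used here.

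Of the 3 effectors, Bax rose with the smallest adjusted p of the family. Bax, which moves from the cytosol to mitochondria to form pores, had 57.5 and 55.4 CPM untreated and 72.3 and 69.1 CPM with Rk1. Both Rk1 libraries were above both untreated ones by more than the spread within either pair. The rise was 1.25-fold (0.32 ± 0.05, edgeR adjusted p = 0.0045, 95% interval 1.15-fold to 1.36-fold). It was called in all 14 alternative settings, with log2 fold changes of 0.29 to 0.36 and adjusted p of 8.5e-04 to 0.025. In size it was not unusual, as 20.6% of tested genes differed by at least as much in either direction. Bax (ENSRNOG00000020876) lies on chromosome 1 at 101451802 to 101457207, minus strand.

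Bak1, the effector that resides on mitochondria, was at 109 and 96.8 CPM untreated and at 106 and 106 CPM with Rk1. The Rk1 values lay between the untreated ones, and the gene did not pass (0.05 ± 0.06, edgeR adjusted p = 0.644, 95% interval 0.934-fold to 1.14-fold). That interval lies wholly under the 1.15-fold lower bound for Bax, although the difference between these genes was not itself tested. Without untreated replicate 2 the log2 fold change of Bak1 was -0.04. Bak1 (ENSRNOG00000000485) lies on chromosome 20 at 5609625 to 5618260, minus strand.

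Bok, an effector that can act apart from Bax and Bak1 and is found largely at the endoplasmic reticulum, was at 32.5 and 29.6 CPM untreated and at 36.5 and 36.6 CPM with Rk1. The Rk1 pair lay above the untreated pair. Its rise of 1.17-fold (0.23 ± 0.07) passed narrowly, at an edgeR adjusted p of 0.045. It was called in 6 of 14 alternative settings, and was lost without untreated replicate 2, Rk1 replicate 1 or Rk1 replicate 2 and with DESeq2 (adjusted p = 0.257) and limma-voom (0.050), over a range of 0.029 to 0.292 in all settings. Bok (ENSRNOG00000018214) lies on chromosome 9 at 100829552 to 100840504, plus strand.

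All 4 BH3-only members were higher in both Rk1 libraries than in both untreated ones, and 2 of them passed the test. Over all tested genes 63.0% had groups that did not overlap, 32.1% with Rk1 higher and 30.9% with Rk1 lower. Bmf, which is held at the actin-bound myosin motor until it is released, had 213 and 179 counts untreated and 272 and 235 with Rk1. It rose from 10.5 and 9.84 CPM to 15.1 and 12.9 CPM, a 1.38-fold change (0.46 ± 0.12, edgeR adjusted p = 0.029). Rk1 replicate 1 was the higher of the treated pair, and without it the log2 fold change was 0.34 and was not called (adjusted p = 0.152), nor was it without untreated replicate 2 (0.088) or by DESeq2 (0.123). Bmf (ENSRNOG00000007529) lies on chromosome 3 at 110306067 to 110324084, minus strand.

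Bad, which neutralises Bcl2 and Bcl-xL and is kept inactive by phosphorylation and 14-3-3 proteins, stood at 54.4 and 53.5 CPM untreated and at 67.3 and 61.7 CPM with Rk1. The untreated libraries were close together and the Rk1 libraries lay above them. The rise was 1.20-fold (0.26 ± 0.06, edgeR adjusted p = 0.017, 95% interval 1.09-fold to 1.31-fold). It was not called by DESeq2 (0.068), nor when untreated replicate 1 (0.052), untreated replicate 2 (0.085) or Rk1 replicate 1 (0.073) was left out. Bad (ENSRNOG00000021147) lies on chromosome 1 at 222198534 to 222207453, plus strand.

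Bid, which links death receptors to mitochondria once caspase-8 has cleaved it, was at 62.2 and 62.9 CPM untreated and at 70.2 and 66.7 CPM with Rk1. Its difference did not pass (0.13 ± 0.05, edgeR adjusted p = 0.104), although the 95% interval for the single gene, 1.01-fold to 1.19-fold, did not hold equality. Bcl2l11 encodes Bim, which binds every guardian and has several splice forms that the count does not separate. Bcl2l11 was at 25.8 and 29.1 CPM untreated and at 32.2 and 30.7 CPM with Rk1. It did not pass either (0.20 ± 0.08, edgeR adjusted p = 0.112, interval 1.01-fold to 1.30-fold), and no alternative setting called Bid or Bcl2l11. Bid (ENSRNOG00000012439) is on the minus strand of chromosome 4 at 153442218 to 153465203, and Bcl2l11 (ENSRNOG00000016551) on the plus strand of chromosome 3 at 120726906 to 120764192.

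**Figure D2:**
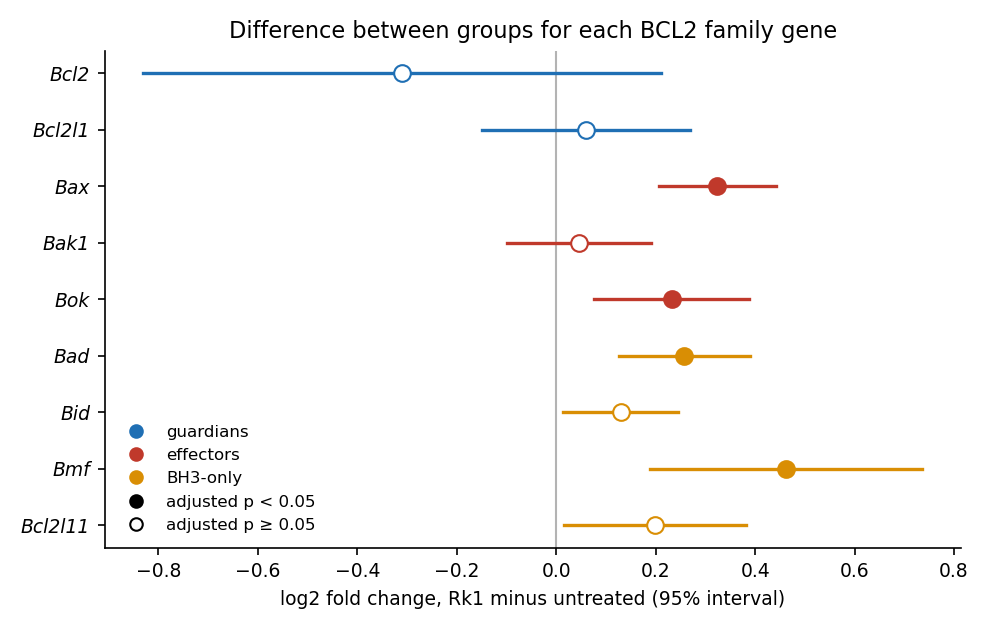
Log2 fold change of each gene, Rk1 minus untreated (horizontal axis), with its 95% interval from edgeR, coloured by role and filled where the adjusted p was under 0.05. Bax, Bok, Bad and Bmf are filled, and the interval of Bcl2 is the widest, from -0.83 to 0.21.

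By role, 0 of 2 guardians, 2 of 3 effectors and 2 of 4 BH3-only members rose and 0 of any role fell. Among all tested genes 11.5% were called higher and 10.5% lower. For these 2 guardians the count was also 0 in either direction at an unadjusted p under 0.05, by DESeq2 and by limma-voom. The further guardian Bcl2l2 is outside this count. It was higher at an unadjusted edgeR p of 0.036 and did not pass after adjustment (0.111). The median log2 fold change was -0.12 for guardians, 0.23 for effectors and 0.23 for BH3-only members. With so few genes in each role, these counts and medians describe the genes and no test compares the roles.

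**Figure D3:**
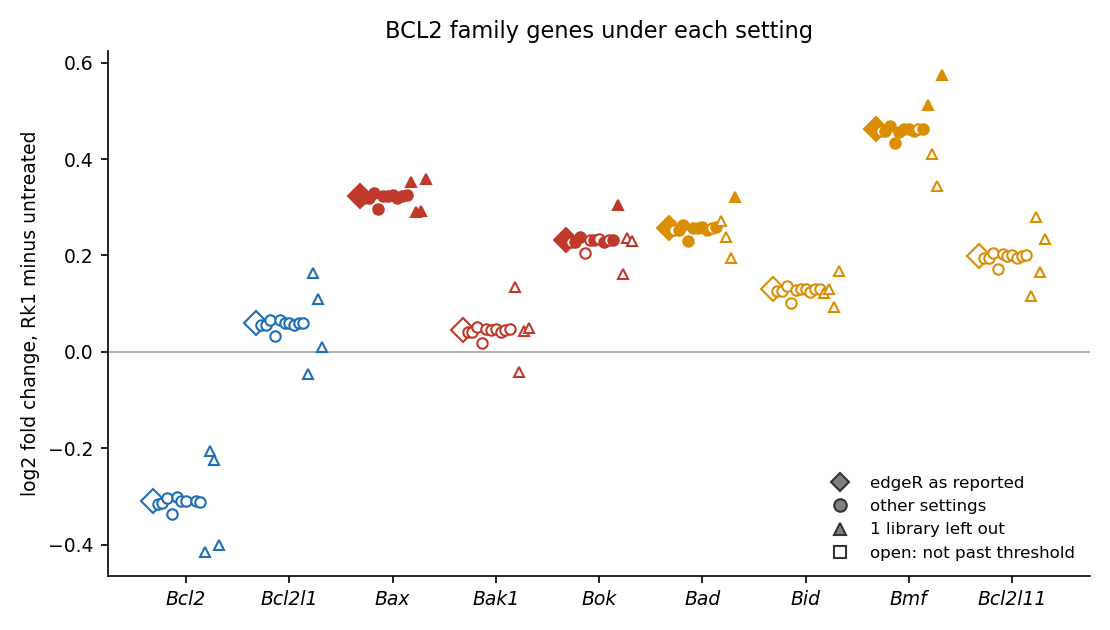
Log2 fold change of each gene (vertical axis) under the reported fit (diamond), 10 other settings (circles) and with 1 library left out (triangles), filled where past the threshold of that setting. Bax is filled throughout, Bok, Bad and Bmf in some settings, and the remaining genes in none.

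Levels can be compared between genes only per exon length, here as RPKM (CPM per kilobase of the exon length in the table). Bax had the highest level at a mean of 76.5 RPKM over the 4 libraries, followed by Bad (59.2), Bak1 (54.1), Bid (32.9), Bok (24.1), Bcl2l1 (11.9), Bmf (5.80), Bcl2l11 (5.79) and Bcl2 (1.92). In that order Bax and Bad, Bad and Bak1, and Bmf and Bcl2l11 had ranges over the libraries that overlapped, and the other neighbours did not. Among all tested genes Bax stood at the 89.2 percentile of mean RPKM, Bcl2l1 at the 45.2 and Bcl2 at the 13.1. Transcript levels of Bcl2 and Bcl2l1 were below those of all 3 effectors in every library.

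**Figure D4:**
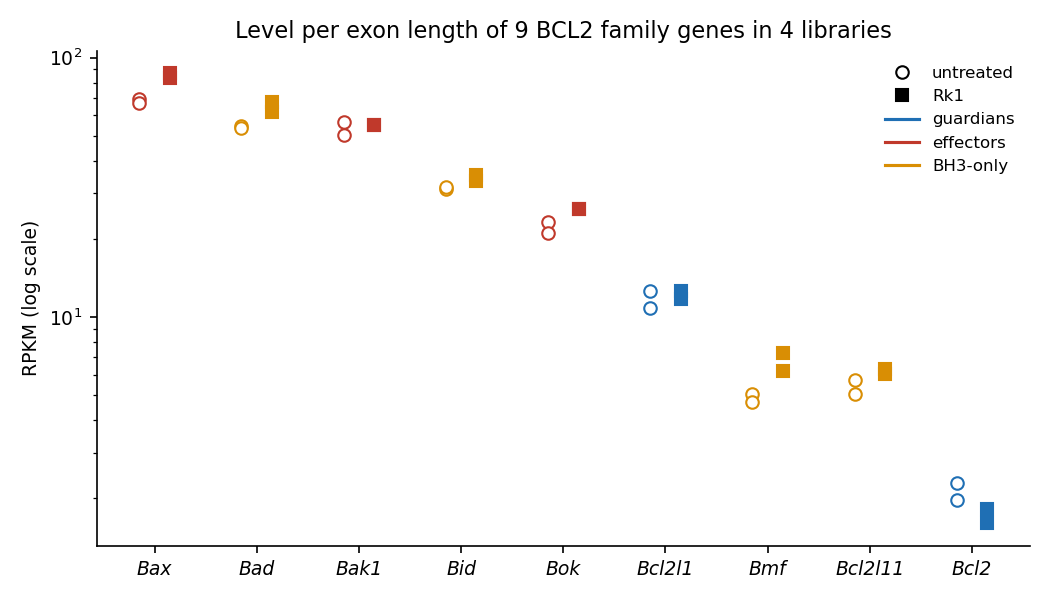
RPKM on a log axis for the 9 genes in order of mean level, with open circles for untreated and filled squares for Rk1 libraries, coloured by role. Effectors sit between 21.2 and 87.0 RPKM and the guardians Bcl2 and Bcl2l1 between 1.61 and 12.6 RPKM.

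Summed over the genes of a role, the 3 effectors were at 149 and 138 RPKM untreated and at 168 and 164 RPKM with Rk1. The 4 BH3-only members summed to 95.7 and 95.5 RPKM untreated and to 116 and 107 RPKM with Rk1. For the 2 guardians the sums were 12.8 and 14.8 RPKM untreated and 13.3 and 14.4 RPKM with Rk1. The groups did not overlap for effectors and BH3-only members and overlapped for guardians. Over single tested genes 63.0% had groups that did not overlap. Mcl1 and the further guardian Bcl2l2, which was at 18.6 and 19.2 RPKM untreated and at 20.6 and 20.5 RPKM with Rk1, are not in the guardian sum, so it does not give the total guardian transcript.

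The Bax to Bcl2 ratio is often quoted as an index of the balance in this family. In RPKM it was 35.2 and 29.2 untreated and 54.2 and 45.8 with Rk1. The Bax to Bcl2l1 ratio was 6.41 and 5.31 untreated and 7.42 and 6.61 with Rk1. The groups did not overlap for either ratio, but for Bax to Bcl2l1 the gap was small. All 7 ratios of an effector or BH3-only gene to Bcl2 were higher in both Rk1 libraries, and they share the denominator of 34 to 49 counts. The ratio of Bak1 to Bcl2 is among them, although neither gene passed the test. Single tested genes had groups that did not overlap in 63.0% of cases, and the share over ratios of other genes was not computed. Of the 7 ratios to Bcl2l1, 3 were higher without overlap and 4 overlapped. No test is given for a ratio, since 2 against 2 libraries cannot go below p = 0.333 in a two-sided exact permutation test.

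Other relatives of the family were read from a list of 13 genes, of which 11 had a row and 6 were tested. Bnip3, an atypical BH3 protein and mitophagy receptor, had the largest change, from 73.8 ± 3.8 to 238 ± 7.2 CPM (mean ± SD), 3.22-fold higher. Bnip3l, its close relative, rose 1.40-fold from 157 ± 3.2 to 219 ± 4.1 CPM. In edgeR's test 2 of the 6 rose and 0 fell, against 11.5% and 10.5% of all tested genes. At an unadjusted p under 0.05, 3 were higher, Bcl2l2 among them, and 1 was lower, against 18.6% and 17.4% of all tested genes. DESeq2 and limma-voom each called 2 higher and 0 lower. Bcl2l2 (Bcl-w), a further guardian named here because its values had been seen, stood at 65.6 and 67.7 CPM untreated and at 72.5 and 72.2 CPM with Rk1 and did not pass (0.12 ± 0.05, edgeR adjusted p = 0.111). Bik and Bcl2l10 were at 0 counts throughout, a limit of 0.167 CPM (3 counts) in the shallowest library.

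Proteins that hold or anchor family members were read from a list of 18 genes, with a median log2 fold change of 0.10. On it 5 rose and 1 fell, against 11.5% and 10.5% of all tested genes. The largest rise was that of Bag3, a co-chaperone that stabilises guardians, at 1.36-fold (0.45 ± 0.06, edgeR adjusted p = 0.0024). Dynll2, the light chain that tethers Bmf to the myosin motor, rose 1.24-fold from 130 ± 2.0 to 161 ± 2.1 CPM. Bcap31, an endoplasmic reticulum protein cleaved by caspase-8, rose by 0.29 ± 0.04 and Itpr3, a calcium channel bound by guardians, by 0.26 ± 0.04. Itpr1, a related channel, fell by 0.27 ± 0.05, a call lost without untreated replicate 2. Vdac2, the channel that recruits Bak1, was at 180 and 185 CPM untreated and at 183 and 176 CPM with Rk1, and Ywhaz, a gene for a 14-3-3 protein, at 1573 and 1542 CPM and at 1697 and 1625 CPM. Neither passed, and both were chosen after their values were seen. On the list for MCL1 turnover 1 of 9 rose, the kinase gene Gsk3b (0.19 ± 0.05), a call lost by DESeq2 and without untreated replicate 2, Rk1 replicate 1 or Rk1 replicate 2, and 0 fell, also at an unadjusted p under 0.05 and by DESeq2 and limma-voom.

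Downstream of the mitochondria, 0 of 11 apoptosome and executioner genes were called in edgeR's test, against 22.0% of all tested genes. The 11 had a median log2 fold change of 0.01. At an unadjusted p under 0.05, 0 were higher and 2 lower, and DESeq2 and limma-voom called 0. With upper-quartile scaling, robust dispersions or a replicate block 2 were called lower, and 1 was without untreated replicate 2. The 2 lower at an unadjusted p under 0.05 in the reported fit were Cycs and Apaf1. Cycs, which encodes cytochrome c, was at 147 and 141 CPM untreated and 133 and 128 CPM with Rk1. Apaf1, the apoptosome scaffold, was at 150 and 135 CPM untreated and 124 and 126 CPM with Rk1. Casp9, the initiator caspase, was at 19.5 and 17.5 CPM untreated and at 19.0 and 18.3 CPM with Rk1. The choice of these 3 genes was made with their values in view. Set against 11.5% higher and 10.5% lower of all tested genes, 0 of 7 inhibitors of apoptosis (IAPs) and their antagonists rose and 1 fell. It was Xaf1, an interferon-inducible antagonist of the inhibitor Xiap, which fell from 99.6 ± 14.1 to 60.2 ± 7.0 CPM (-0.73 ± 0.11, edgeR adjusted p = 0.0037) and was not called with robust dispersions.

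The death receptor route reaches the mitochondria through Bid. On it 1 of 7 tested genes rose and 1 fell, against 11.5% and 10.5% of all tested genes. Tnfrsf1a, the main receptor for tumour necrosis factor, rose by 0.22 ± 0.04 from 142 ± 2.9 to 165 ± 1.6 CPM, and was not called without untreated replicate 2 or without Rk1 replicate 1. Cflar, which encodes the caspase-8 inhibitor c-FLIP, fell by 0.28 ± 0.08 from 27.7 ± 1.8 to 22.8 ± 0.042 CPM, and was called in 9 of 14 alternative settings, with losses by DESeq2 and without untreated replicate 1, Rk1 replicate 1 or Rk1 replicate 2.

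Of 5 tested transcription factors known to act on BH3-only genes, 1 rose and 1 fell, against 11.5% and 10.5% of all tested genes. Foxo3, an activator of Bcl2l11, rose by 0.28 ± 0.06 from 44.3 ± 2.7 to 53.8 ± 1.7 CPM. Jun, an AP-1 subunit, fell by 0.51 ± 0.05. Foxo1, also on the list, had a mean of 17.9 CPM in both groups and did not pass (edgeR adjusted p = 0.999). The Foxo3 call was lost without untreated replicate 2, without Rk1 replicate 1 and by DESeq2.

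**Figure D5:**
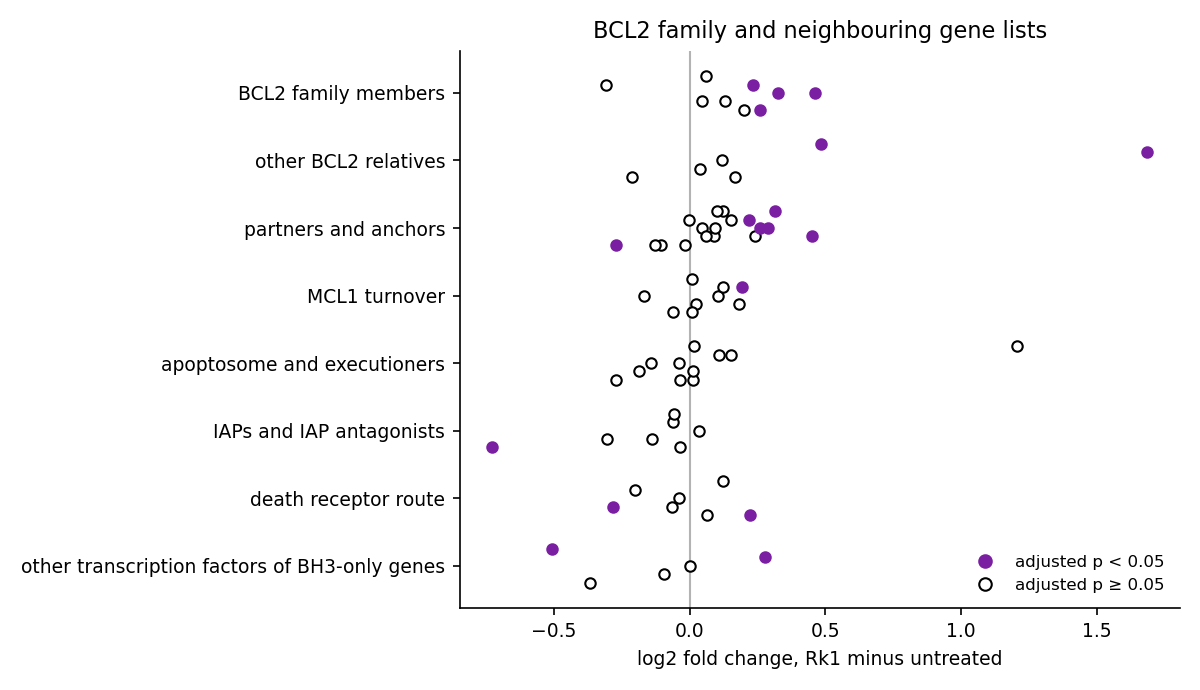
Log2 fold change (horizontal axis) of every tested gene on the lists described here, 1 point per gene and filled where the edgeR adjusted p was under 0.05, with vertical position within a list only separating the points. Bnip3 lies far to the right at 1.69, and 0 of 11 apoptosome and executioner genes are filled, against 22.0% called among all tested genes.

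The genes whose pattern over the 4 libraries was most like that of the leading member of each role were found by Euclidean distance in mean-centred log2 CPM, among 9045 other tested genes. For Bax they were Magi1 (distance 0.0025), Clptm1 (0.013) and Aftph (0.013). For Bad they were Chmp3 (0.0096), Ulk1 (0.011) and Degs1 (0.012), and for Bcl2, the guardian with the smaller p, Rps12 (0.011), Gemin6 (0.023) and Uchl5 (0.030). With 4 libraries such closeness is common, since 407 genes lay within 0.1 of Bax, 468 within 0.1 of Bad and 107 within 0.1 of Bcl2.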

How the data were processed

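RNA from 4 HSC-T6 libraries, 2 untreated and 2 treated with Rk1, was grouped by the treatment label. Per the labels' protocols, libraries were made with the VAHTS Universal V6 kit from Trizol RNA. The submitters' processing notes name HISAT2 and HTSeq, with versions, strand setting and handling of multi-mapped reads not given in the sources used here. In 1 table the authors deposited raw counts per Ensembl gene, with symbols, exon lengths and Rnor_6.0 positions per the file headers. A gene-level count does not separate splice forms.

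Genes were filtered with filterByExpr (minimum count 10, minimum total 15) and tested with edgeR 4.0.16 in R 4.3.3 by the two-sided quasi-likelihood F-test with TMM scaling, a model of group alone (2 residual degrees of freedom). P-values were adjusted by Benjamini-Hochberg over all tested genes (threshold 0.05), and the SE is the log2 fold change over the square root of F. Paired libraries were not duplicates, as their counts differed beyond sampling noise (chi-square over degrees of freedom 4.39 and 4.49). Floors reflect counting error alone, since no molecular identifiers are mentioned. Steps were tested on simulated data, where 62% of 50 genes changed by 1.33-fold and 90% of 50 changed by 1.5-fold were recovered. Of 197 calls there, 21 were false, a larger share than the threshold of 0.05. Changes were simulated in only a few of the 12228 genes run, all with more counts than Bcl2. The recovery therefore does not cover genes with as few counts as Bcl2. Bax, Bok and Bad rose by less than 1.33-fold, the smallest change simulated. Members and lists were chosen with earlier results of these data known. Besides the members, the rule named up to 4 called genes per list and direction by adjusted p and the 3 genes most like the leading member of each role with a mean of at least 10 CPM, on log2 CPM with 0.5 added. Bbc3, Hrk, Tnfrsf10b and E2f1 of the lists, and the marker Pecam1, were not analysed here, and 1 list and some list members are not reported here. Alternatives were DESeq2 1.42.0, limma-voom (limma 3.58.1), other scalings, filters, dispersions and thresholds, a replicate block, and fits without 1 library, in which a lone library takes the spread of the other group.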

Additional observations from a re-analysis of the deposited data

How the results depend on the processing

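Of the 9 members, 7 kept their direction in every alternative that gave a value; Bcl2l1 turned to -0.05 without untreated replicate 1 and Bak1 to -0.04 without untreated replicate 2, neither called. The count of members higher was 1 by DESeq2 and 1 at an adjusted p under 0.01, and 1 to 3 when 1 library was left out, and in each of these settings Bax was called. In all settings 0 members were lower. Of all tested genes, 859 were higher and 853 lower by DESeq2, 665 and 561 at an adjusted p under 0.01, and 824 to 1110 higher and 859 to 936 lower when 1 library was left out, against 1422 and 1289 as reported. With upper-quartile scaling 1198 were higher and 1556 lower, and the median log2 fold change of all genes shifted to -0.03. Bcl2 has no value under the filter of at least 50 counts in 2 libraries. Depth limits Bcl2 most, with 34 to 49 counts in a library.

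With the replicate number as a block, 1676 genes were higher and 1538 lower, and 4 members were higher, as without it. The deviations of same-numbered libraries correlated at 0.08 over all tested genes, which with 2 pairs does not settle whether the replicate numbers pair the libraries. With the replicate block Pmaip1 was called higher (0.16 ± 0.04, edgeR adjusted p = 0.031), while Atf4 (adjusted p = 0.0026) and Sesn2 (0.0018) were called lower. Ddit3 (edgeR adjusted p = 0.266) and Casp6 (0.110) were not called with the block. All of these genes were chosen after their values were seen. Each had replicate 2 above replicate 1 in both groups, a difference that the block takes out of the spread.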

Other observations

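Some stress genes next to the family differed widely between the libraries of a group, and are named here after inspection of their values. Pmaip1, which encodes the BH3-only protein Noxa, was at 117 and 140 CPM in the untreated libraries and at 129 and 159 CPM with Rk1, and did not pass (0.17 ± 0.11, edgeR adjusted p = 0.333). Atf4, a transcription factor of the integrated stress response, was at 669 and 811 CPM untreated and at 484 and 664 CPM with Rk1 (adjusted p = 0.113). Ddit3, which encodes CHOP, was at 110 and 131 CPM untreated and at 92.3 and 132 CPM with Rk1, and Sesn2, a stress-induced regulator of growth signalling, at 67.7 and 110 CPM and at 48.1 and 85.3 CPM. In each of these 4 genes replicate 2 was above replicate 1 in both groups. Among the members, Bcl2 and Bcl2l1 also had replicate 2 above replicate 1 in both groups, while Bax, Bak1, Bad and Bmf had it below in both.

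Casp6, an executioner caspase, had 3 and 39 counts in the untreated libraries and 1 and 93 counts with Rk1. Replicate 1 of each group was thus at or under the floor of 3 counts and replicate 2 well above it, and the comparison of groups says little for this gene (edgeR adjusted p = 0.558).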
